A study of Drosophila melanogaster with 6 samples.

Results

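Nascent transcription of 8 genes of the neurogenic ectoderm and of EGF and FGF signalling was examined in stage 5 Drosophila melanogaster embryos with and without maternal Domino. The genes were taken by symbol in the dm6 annotation from a table of 17753 genes and comprised rho, vn, Egfr, ths, pyr, vnd, ind and sim. Of these 8 genes, 7 had a mean of at least 10 reads per library and were among the 10429 genes tested, and ind was not. GRO-seq, in which isolated nuclei extend the RNA already under synthesis with a labelled nucleotide that is then used to purify it, was performed on 6 libraries of pooled, hand-picked embryos. The 3 Ctrl libraries (genotype label t180) used the TRiP control line, and the 3 DomKD libraries (genotype label t216) came from mothers with a short hairpin RNA against both isoforms of Domino, the ATPase that deposits the histone variant H2A.Z. Per the study's methods, the hairpin was driven by mat-alpha-Gal4 in the maternal germline, so it was the product loaded into the egg that was depleted. The design text of the series places the replicates in batches A and B, which were not balanced, with Ctrl A1, DomKD A1 and DomKD A2 in batch A and Ctrl B1, Ctrl B2 and DomKD B1 in batch B.

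In the stage 5 embryo the nuclear gradient of Dorsal divides the ectoderm next to the mesoderm into stripes. The neurogenic ectoderm, from which the ventral nerve cord forms, expresses rho and vn, which feed the EGF receptor, and the FGF ligands ths and pyr, which are read by the neighbouring mesoderm. Within it, vnd and ind specify adjacent neural columns, and sim marks the single row of cells that becomes the midline. The libraries were made from whole embryos, so a change in the number of cells that transcribe a gene and a change in transcription per cell cannot be told apart.

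Stretches shared with another gene on the same strand, as in ths and ind, may be left out of a gene's counts. Otherwise the counts of each gene span the whole transcription unit, introns included, from its most 5′ start onward. The stretch from 120 bases before to 30 bases after an annotated transcription start site (TSS), read from the dm6 genome, is shown for 3 of them. It is given for rho because rho had the most reads per kilobase, for vnd because it was the only one of the 8 whose most 5′ promoter held the DRE, and for the third annotated start of sim because it held more than 1 Zelda site. Capitals mark matches to the motifs named in the next paragraph, on either strand. The rho stretch is chr3L:1463691-1463840 on the plus strand, that of vnd chrX:582001-582150 on the plus strand, and that of sim chr3R:13072279-13072428 on the plus strand.
rho: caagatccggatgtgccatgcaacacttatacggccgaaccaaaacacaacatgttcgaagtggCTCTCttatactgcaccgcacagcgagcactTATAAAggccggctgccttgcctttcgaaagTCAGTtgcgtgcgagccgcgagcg
vnd: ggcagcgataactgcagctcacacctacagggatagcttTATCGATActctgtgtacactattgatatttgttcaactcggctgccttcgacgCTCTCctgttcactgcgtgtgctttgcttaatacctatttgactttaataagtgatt
sim: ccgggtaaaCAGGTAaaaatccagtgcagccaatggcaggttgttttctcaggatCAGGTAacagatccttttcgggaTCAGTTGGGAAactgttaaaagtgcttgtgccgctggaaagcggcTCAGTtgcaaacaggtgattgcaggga

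The motifs searched were CAGGTA (Zelda, the pioneer factor of the early genome), GGGNNNNCC (Dorsal), CACATG (Twist), TGGGAA (Su(H), the transcription factor of the Notch pathway), ACGTG (Sim with its partner Tango), GAGAG (the site of Trithorax-like), TATAAA (the site of the general factor TBP), TATCGATA (DRE) and, on the plus strand only, TCAGT (initiator). In the rho stretch the capitals are GAGAG on the minus strand, TATAAA with its first base at position -25 from the TSS and TCAGT starting at base 7 of the transcript. In that of vnd they are TATCGATA with its first base at position -81 and GAGAG on the minus strand. In that of sim they are CAGGTA at positions -111 and -65, TCAGT at position -42 directly followed by TGGGAA at -37, and TCAGT starting at base 4. In the 300 bases around the most 5′ TSS (250 before it and 50 from it on), CAGGTA was found in 1 of the 8 genes, ind, and in 6.22% of 13826 protein-coding promoters. At later annotated starts of the 8 genes it was found at the third of sim and, at position -107, at the second of Egfr. GAGAG was found in 5 of the 8 (Egfr, rho, ths, vn and vnd) and in 29.7% of all promoters, TCAGT in 5 (Egfr, ind, pyr, rho and ths) and in 36.0%, and TATAAA in 2 (pyr and rho) and in 45.8%. GGGNNNNCC was found in 2 of the 8 (Egfr and rho) and in 13.3% of all promoters, TGGGAA in 2 (Egfr and ths) and in 16.3%, CACATG in 1 (pyr) and in 9.72%, TATCGATA in 1 (vnd) and in 9.28%, and ACGTG in none and in 23.3%. A match is a string of letters and not a measured site.

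Total counts ranged from 10660708 (DomKD A2) to 24537992 (Ctrl B1). The quasi-likelihood test of edgeR with TMM scaling, which sets the trimmed mean change between libraries to 0, and with batch in the model called 2264 of 10429 genes (21.7%), 1259 of them higher (12.1%) and 1005 lower (9.64%) in DomKD at an adjusted p of 0.05. The median log2 change of all tested genes was -0.07. Levels are given as CPM, which are counts over library totals adjusted by TMM and not over the plain totals. The targeted gene dom had 789 ± 72.9 CPM (mean ± SD, n = 3) in Ctrl and 774 ± 167 CPM in DomKD. Its log2 change was 0.01 (SE 0.18, edgeR adjusted p = 0.973), and so it gave no check of the labels.

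Of the 7 genes tested, 5 were called higher in DomKD under TMM scaling (rho, vn, Egfr, pyr and vnd, with fold changes of 1.75 to 2.22), none was called lower, and ths and sim were not called. In TMM-scaled log2 CPM the 3 DomKD libraries lay above the 3 Ctrl libraries in all 7 genes. This arrangement was seen in 17.2% of all tested genes, and the opposite one in 23.4%. The median log2 change of the 7 was 0.83, against -0.07 over all tested genes. These calls, the sign and the separation of the groups depend on the scaling. With total count scaling 2 of the 7 (vn and Egfr) were called higher, as were 5.16% of all tested genes. When libraries were scaled on a list of Zelda target genes, none was called higher, against 66 of all 10429 tested genes. With that list ths was called lower, as were 46.9% of all tested genes. The call also needed particular libraries: 3 of the 7 were called higher without Ctrl A1, against 458 of 10454 genes tested there. Without DomKD B1 the number was 0, where only 9 genes of the whole table were called.

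The EGF ligand side was represented by rho and vn. The gene rho (FBgn0004635, chr3L:1463811-1468944, plus strand) encodes rhomboid, the intramembrane protease that releases the active ligand Spitz, and lies in an intron of Ptp61F on the opposite strand. It had 759 CPM in Ctrl A1, 816 in Ctrl B1 and 685 in Ctrl B2, and for DomKD 1124 CPM in A1, 1352 in A2 and 1412 in B1. With TMM scaling the lowest DomKD library lay well above the highest Ctrl library. The log2 change of rho was 0.81 (SE 0.17, edgeR adjusted p = 0.00573) with TMM scaling and turned to -0.23 (adjusted p = 0.194) with Zelda list scaling. Batch A alone gave 0.70 and batch B alone 0.92.

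The gene vn (FBgn0003984, chr3L:5813338-5845664, minus strand) encodes Vein, a secreted neuregulin-like ligand of the EGF receptor that needs no rhomboid cleavage. It had 254 CPM in Ctrl A1, 268 in Ctrl B1 and 241 in Ctrl B2, and for DomKD 551 CPM in A1, 538 in A2 and 581 in B1. Relative to their means these were the tightest groups of the set, with an SD of 13.7 CPM in Ctrl and 22.2 CPM in DomKD (n = 3 each), and the lowest DomKD value was above the highest Ctrl value. The log2 change of vn was 1.15 (SE 0.15, edgeR adjusted p = 0.000798), with 1.10 in batch A and 1.19 in batch B. With Zelda list scaling it was 0.10 (adjusted p = 0.648), and with DESeq2 on the same list and no batch term it turned to -0.15 (adjusted p = 0.781).

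The receptor gene Egfr (FBgn0003731, chr2R:21522420-21559977, plus strand) had the most reads of the set. Its level was 1945 CPM in Ctrl A1, 1381 in Ctrl B1 and 1135 in Ctrl B2, and for DomKD 4638 CPM in A1, 3969 in A2 and 2741 in B1. The groups did not overlap, and within each group the batch A libraries were the higher ones. The log2 change was 1.14 (SE 0.17, edgeR adjusted p = 0.00143), and it was nearly the same in batch A (1.14) and in batch B (1.13). With Zelda list scaling it was 0.09 (adjusted p = 0.606). Introns of Egfr hold 5 genes on the opposite strand (among them CG30283, CG30286, CG30287 and CG33226), which counting by strand keeps apart.

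Of the FGF ligand genes, pyr was called higher and ths was not. Both ligands signal through the receptor Heartless of the mesoderm. The gene pyr (pyramus, FBgn0033649, chr2R:11712263-11726345, plus strand) had 181 CPM in Ctrl A1, 240 in Ctrl B1 and 229.9 in Ctrl B2, and for DomKD 269 CPM in A1, 300.4 in A2 and 484 in B1. DomKD B1 stood clear of the other 2 DomKD libraries, and Ctrl A1 was the lowest library of all. The log2 change of pyr was 0.85 (SE 0.16, edgeR adjusted p = 0.00341), with 0.65 in batch A and 1.04 in batch B, and turned to -0.20 (adjusted p = 0.360) with Zelda list scaling. With total count scaling it was 0.37 and not called (adjusted p = 0.0673), and without a batch term it was not called either (adjusted p = 0.0856).

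The gene ths (thisbe, FBgn0033652, chr2R:11756817-11814424, plus strand) is the longest of the set, and its introns hold CG13193 and CG42493 on the same strand. It had 425 CPM in Ctrl A1, 333 in Ctrl B1 and 361 in Ctrl B2, and for DomKD 456 CPM in A1, 488 in A2 and 603 in B1. The groups did not overlap, but Ctrl A1 came close to DomKD A1. The log2 change was 0.47 (SE 0.17, 95% interval 0.10 to 0.85) and was not called by edgeR (adjusted p = 0.0701), with 0.15 in batch A and 0.80 in batch B. With Zelda list scaling ths was called lower (log2 change -0.57, adjusted p = 0.00672), a call that 46.9% of all tested genes had under that scaling, and with total count scaling it was at -0.01. RLE scaling (0.52, adjusted p = 0.0388), a filter at a mean of 50 counts and DESeq2 with batch called it higher.

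The ratio of ths to pyr does not depend on the scaling. As a log2 ratio it was 1.23, 0.47 and 0.65 in Ctrl A1, B1 and B2, compared with 0.76, 0.70 and 0.32 in DomKD A1, A2 and B1, so that the groups overlapped. The difference of the means was -0.19 (exact two-sided permutation test, p = 0.6, Benjamini-Hochberg adjusted p = 0.6 over 4 pairs), where the smallest p that 3 against 3 libraries allow is 0.1. The test had no term for batch, and the difference was -0.50 in batch A and -0.24 in batch B. Without Ctrl A1 it was 0.03.

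Of the neural column genes, vnd (FBgn0261930, chrX:582121-598151, plus strand) encodes the NK homeodomain factor of the ventral column. It overlaps spdi on the opposite strand. It had 364 CPM in Ctrl A1, 325 in Ctrl B1 and 254 in Ctrl B2, and for DomKD 606 CPM in A1, 694 in A2 and 510 in B1. The groups did not overlap, and in both the batch A libraries were the highest. The log2 change of vnd was 0.83 (SE 0.16, edgeR adjusted p = 0.00482) and was 0.83 within each batch. It turned to -0.21 (adjusted p = 0.332) with Zelda list scaling and was 0.35 with total count scaling (adjusted p = 0.0745).

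The gene ind (FBgn0025776, chr3L:15042799-15043924, minus strand) encodes the homeodomain factor of the intermediate column and had 0 reads in all 6 libraries. It lies wholly in an intron of Sytbeta on the same strand. Of the 867 protein-coding genes that lie wholly inside another gene on the same strand, 859 (99.1%) had no read in any library, against 1678 of 12978 others (12.9%). A count of 0 at ind therefore gives no level for it and no limit on one, and its ratio to vnd could not be formed. Sytbeta itself had 20.6 ± 9.02 CPM in Ctrl and 25.8 ± 3.62 CPM in DomKD (SD, n = 3 each), with a log2 change of 0.25 (SE 0.33, adjusted p = 0.642).

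The midline gene sim (FBgn0004666, chr3R:13057755-13078124, plus strand) encodes the bHLH-PAS factor single-minded and had the fewest reads of the 7. It had 85.8 CPM in Ctrl A1, 73.3 in Ctrl B1 and 73.7 in Ctrl B2, and for DomKD 95.9 CPM in A1, 103 in A2 and 127 in B1. DomKD B1 was the highest and the groups did not overlap. The log2 change was 0.50 (SE 0.18, 95% interval 0.10 to 0.90) and was not called by edgeR (adjusted p = 0.0713), with 0.21 in batch A and 0.79 in batch B. With total count scaling it was 0.02 and with Zelda list scaling -0.55 (adjusted p = 0.0521). RLE scaling (0.55, adjusted p = 0.0448), a filter at a mean of 50 counts (adjusted p = 0.0404) and DESeq2 with batch (adjusted p = 0.0322) called it higher.

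**Figure D1:**
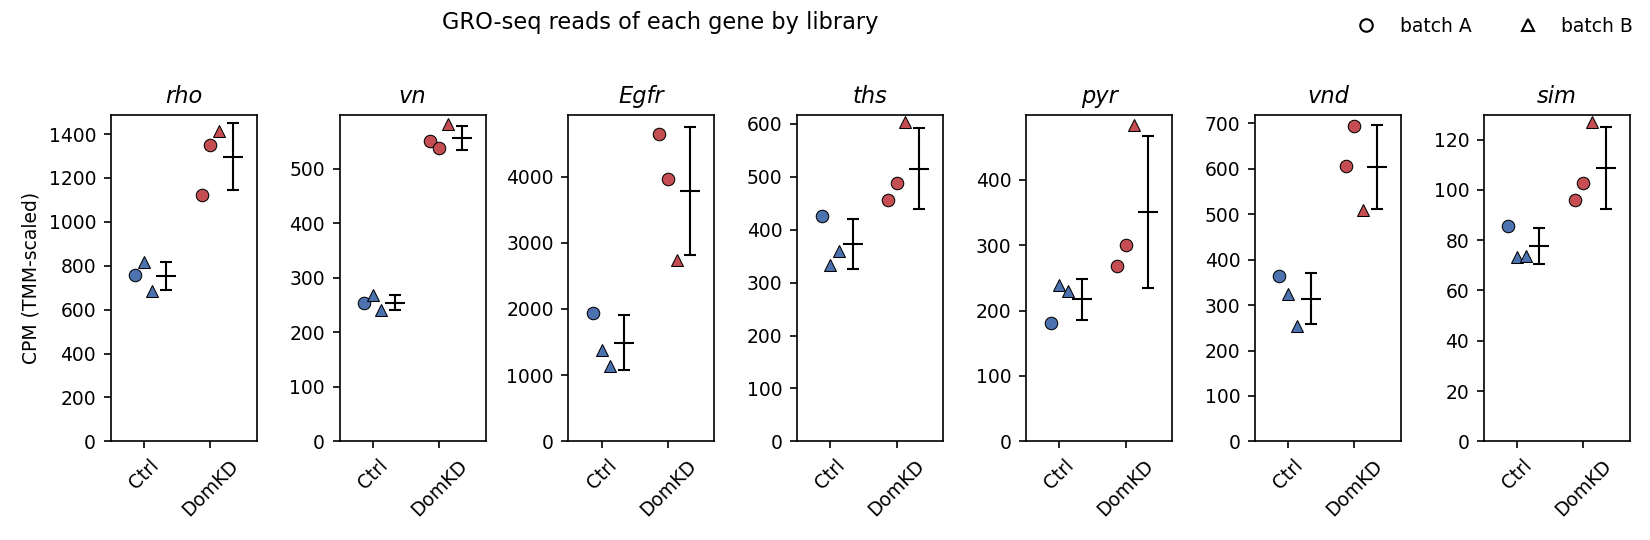
Level of each tested gene in every library, in CPM with TMM scaling on a linear axis from 0 (circles, batch A; triangles, batch B; bars, mean and SD of the 3 libraries of a group). The DomKD libraries lay above the Ctrl libraries for each of the 7 genes, with the widest gap, as a ratio, for vn (at most 268 in Ctrl, at least 538 in DomKD) and the narrowest for ths (425 and 456).

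The other ratios within a library were compared for the EGF genes and for sim. The log2 ratio of vn to Egfr was -2.51 ± 0.37 (SD, n = 3) in Ctrl and -2.73 ± 0.44 in DomKD, a difference of -0.22 (exact two-sided permutation test without a batch term, p = 0.6, adjusted p = 0.6), but it was -0.04 in batch A and 0.06 in batch B. That of rho to Egfr was -0.95 ± 0.35 in Ctrl and -1.52 ± 0.54 in DomKD, a difference of -0.57 (exact permutation test, p = 0.2, adjusted p = 0.4), with -0.44 in batch A and -0.21 in batch B. Without DomKD A1 it was -0.31, and without DomKD B1 -0.85. That of sim to rho was -3.14, -3.47 and -3.21 in Ctrl A1, B1 and B2, compared with -3.55, -3.71 and -3.48 in DomKD A1, A2 and B1. The groups did not overlap, but DomKD B1 (-3.475) and Ctrl B1 (-3.474) nearly coincided. The difference of -0.30 had the smallest p the design allows (exact permutation test, p = 0.1, Benjamini-Hochberg adjusted p = 0.4 over the 4 pairs), with -0.49 in batch A and -0.13 in batch B. No ratio of 2 of these genes thus passed an adjusted p of 0.05, which the design could not reach.

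Levels were set against each other per kilobase of transcription unit. In Ctrl the order was rho (147 ± 12.8 CPM per kilobase, SD, n = 3), Egfr (39.6 ± 11.1), vnd (19.6 ± 3.48), pyr (15.4 ± 2.22), vn (7.86 ± 0.423), ths (6.47 ± 0.824) and sim (3.81 ± 0.349). The libraries of vnd and pyr overlapped, and those of the other neighbours in this order did not, although vn (at least 7.45) and ths (at most 7.38) nearly met. The length of ths includes CG13193 (1109 bases) and CG42493 (710 bases) on its strand, where reads may have been counted for neither gene. Whether vn and ths stay apart in Ctrl without these bases was not tested. In DomKD the order was the same, from rho (253 ± 29.6 CPM per kilobase) and Egfr (101 ± 25.6) to vnd (37.6 ± 5.77), pyr (24.9 ± 8.24), vn (17.2 ± 0.686), ths (8.95 ± 1.34) and sim (5.33 ± 0.797), and again only vnd and pyr overlapped. Among all tested genes, rho stood at the 97.2 percentile of this level in Ctrl and at the 96.7 percentile in DomKD, while vn went from the 48.2 to the 71.7 percentile and sim from the 36.7 to the 45.6 percentile.

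The sign of the changes rests on what is held at 0. The Zelda list held 47 early genes known as Zelda targets, none of them among the 8, and 42 of its 46 tested genes were called higher under TMM scaling. Scaling on it moved the median of all tested genes to -1.12 and that of the 7 genes to -0.21, with rho, ths, pyr, vnd and sim below 0 and vn and Egfr at or just above it. Total count scaling moved the median of all tested genes to -0.56 and that of the 7 genes to 0.35. Measured from the median of all tested genes, the changes were 0.88 for rho, 1.22 for vn, 1.21 for Egfr, 0.55 for ths, 0.92 for pyr, 0.90 for vnd and 0.57 for sim under TMM scaling, and for rho they were 0.89 under both other scalings. A scaling moves all genes together by its construction, so these differences could not change much, and the 3 scalings are not separate support. All 7 genes lay above the median tested gene. With the Zelda list 5 of them lay below 0, of which ths was called.

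**Figure D2:**
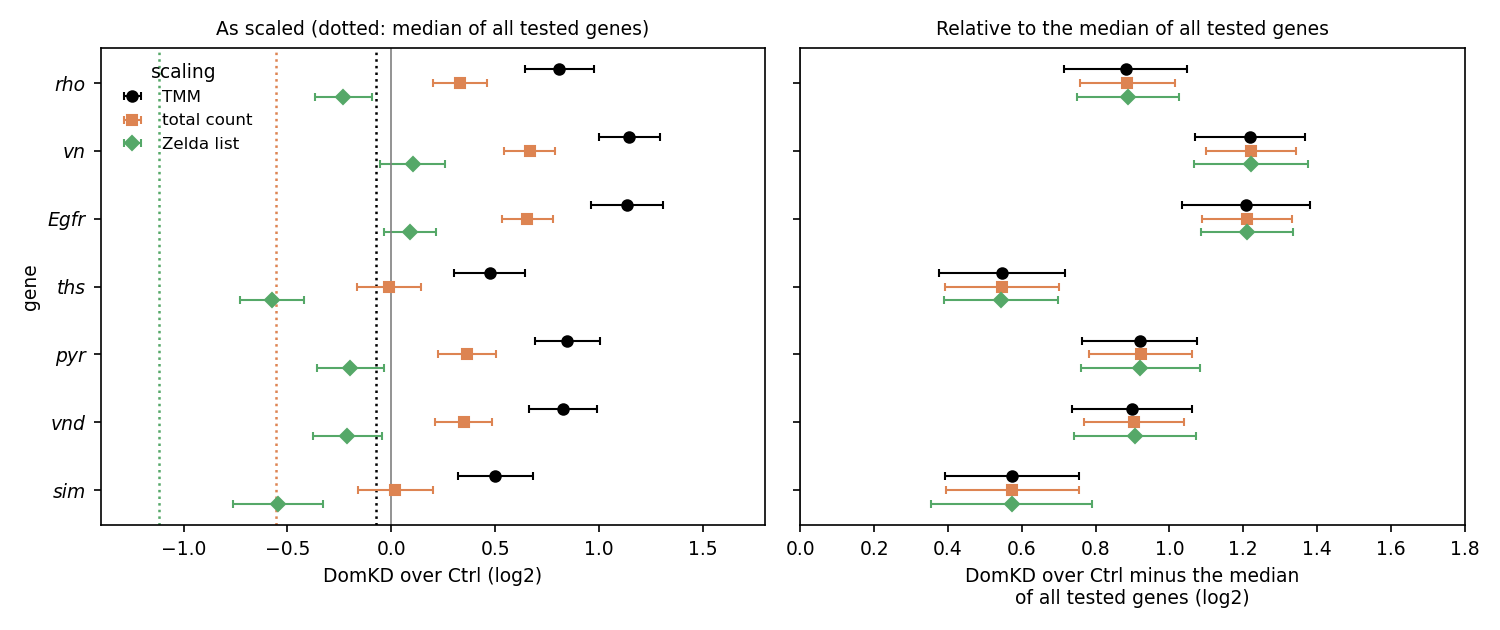
Log2 change of DomKD over Ctrl for each gene under TMM, total count and Zelda list scaling (points, edgeR estimate; bars, SE; left, as scaled, with dotted lines at the median of all tested genes; right, minus that median). On the left the values of rho run from 0.81 to -0.23 with the scaling. On the right they stay between 0.88 and 0.89, because a scaling moves all genes together by its construction.

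The genes differed in how the libraries varied within a group. Batch B against batch A in the same model gave a log2 difference of -0.64 for Egfr (SE 0.17, edgeR adjusted p = 0.0661), -0.34 for vnd (SE 0.16, adjusted p = 0.292) and 0.57 for pyr (SE 0.16, adjusted p = 0.0685). None of the 7 genes passed the threshold in this comparison, which was added after the values had been seen and which 4.08% of all tested genes passed. For Egfr and vnd the batch difference was nearly the same in both groups (Egfr -0.64 in Ctrl and -0.65 in DomKD, vnd -0.34 and -0.35). For ths it was -0.30 in Ctrl and 0.35 in DomKD, and for sim -0.22 and 0.35. A term for a DomKD effect that differs between batches was 0.65 for ths (unadjusted p = 0.0389 in edgeR, adjusted p = 0.815) and 0.58 for sim (adjusted p = 0.817), and no gene of the table passed the threshold for it, with 608 genes at an unadjusted p under 0.05.

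**Figure D3:**
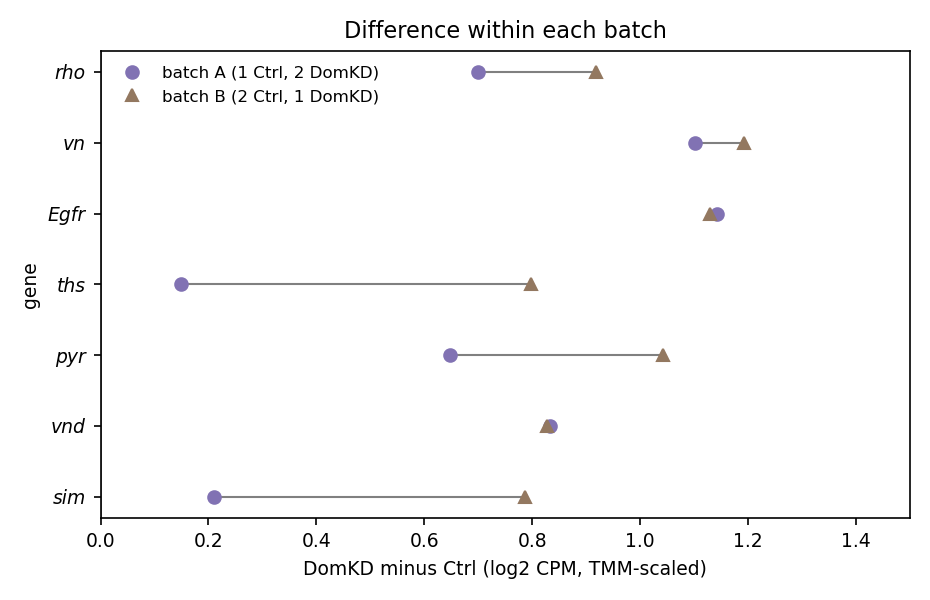
Difference of mean log2 CPM between DomKD and Ctrl inside batch A (circles) and inside batch B (triangles) for each gene, on a log2 scale with TMM scaling. Egfr (1.14 and 1.13) and vnd (0.83 and 0.83) have the same difference in both batches, and ths (0.15 and 0.80) and sim (0.21 and 0.79) the most unequal.

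Across the 6 libraries the log2 CPM of ths and sim were correlated with a Pearson r of 0.99, and those of Egfr and vnd with 0.973. The lowest value among the 21 pairs was that of Egfr and pyr (0.423). These are descriptions over 6 libraries that share their groups and batches. Among the 7369 candidates whose mean count reached 100, the gene most like rho was lncRNA:bxd (r = 0.999), that most like vn was S6k (0.997), that most like Egfr was cnn (0.999), that most like ths was CG44153 (0.991), that most like pyr was Rnmt (0.996), that most like vnd was Sh (0.998) and that most like sim was snoRNA:Or-aca4 (0.988). Each is the highest of 7369 values, and high values were common. The ninth decile of r over the candidates ran from 0.779 for pyr to 0.896 for Egfr.

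Other genes of the same pathways were read from the same fit, and their values are with TMM scaling unless another is named. Of 65 listed genes, 62 were tested, with a median log2 change of 0.56. Of the 62, 31 (50.0%, against 12.1% of all tested genes) were called higher in DomKD and 3 (4.84%, against 9.64%) lower. With total count scaling 5 were higher (8.06%, against 5.16% of all genes) and 10 lower (16.1%, against 26.3% of all genes). With Zelda list scaling 0 were higher and 27 lower (43.5%, against 46.9% of all genes). Without Ctrl A1 there were 8 higher, against 458 of all 10454 genes tested there. Without DomKD B1 there were none, against 6 of 10450.

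Among other EGF ligand and processing genes, 2 of 7 tested were called higher and none lower. With TMM scaling the chaperone gene S (Star), which moves Spitz out of the endoplasmic reticulum, had 848 CPM in Ctrl and 1223 CPM in DomKD (log2 change 0.55, SE 0.17, edgeR adjusted p = 0.0379). The gene of Spitz itself, spi, had 840 and 905 CPM (0.21, adjusted p = 0.422). The cytoplasmic relay had 1 gene higher and 1 lower of 11, with a median of -0.19, and its central members Ras85D (0.09, adjusted p = 0.737) and rl, the MAP kinase gene (-0.19, adjusted p = 0.456), were not called. Feedback inhibitors of the receptor pathway had 3 higher and 1 lower of 6. Of these, sty (Sprouty) was called higher (0.66, adjusted p = 0.0151), and aos, which encodes the secreted antagonist Argos, had 0.59 (adjusted p = 0.0712). Of 4 nuclear effectors, 3 were called higher, among them aop (Yan, the repressor; 0.56, adjusted p = 0.0353) and edl (0.70, adjusted p = 0.0315), whereas pnt, which encodes the activator Pointed, was not (0.36, adjusted p = 0.118).

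Of 4 FGF genes beside the ligands ths and pyr, 3 were called higher. They were htl, the receptor for both ligands (0.71, SE 0.17, edgeR adjusted p = 0.0125), btl, the tracheal receptor (0.96, adjusted p = 0.00436), and bnl, its ligand (0.71, adjusted p = 0.0363). The adaptor gene stumps had 0.51 (adjusted p = 0.083). Of the 5 heparan sulphate synthesis genes, 2 were called higher and 1 lower, with a median of -0.55.

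Of 7 other neurogenic ectoderm genes, 6 were called higher and none lower, with a median of 0.84, where 12.1% of all tested genes were called higher. With TMM scaling the BMP inhibitor gene sog had 1358 CPM in Ctrl and 2802 CPM in DomKD (0.83, SE 0.18, edgeR adjusted p = 0.00814). The repressor gene brk had 0.83 (adjusted p = 0.00683), and Dr, which specifies the dorsal column next to that of ind, had 0.84 (adjusted p = 0.00822). For the midline and Notch genes the count was 11 higher and none lower of 18, with a median of 0.67. The Notch ligand gene Dl (0.67, adjusted p = 0.0205) and the ubiquitin ligase gene neur, which activates it (0.67, adjusted p = 0.0156), were called higher. The receptor gene N (0.34, adjusted p = 0.229) and tgo, the partner of sim (0.39, adjusted p = 0.0944), were not called.

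**Figure D4:**
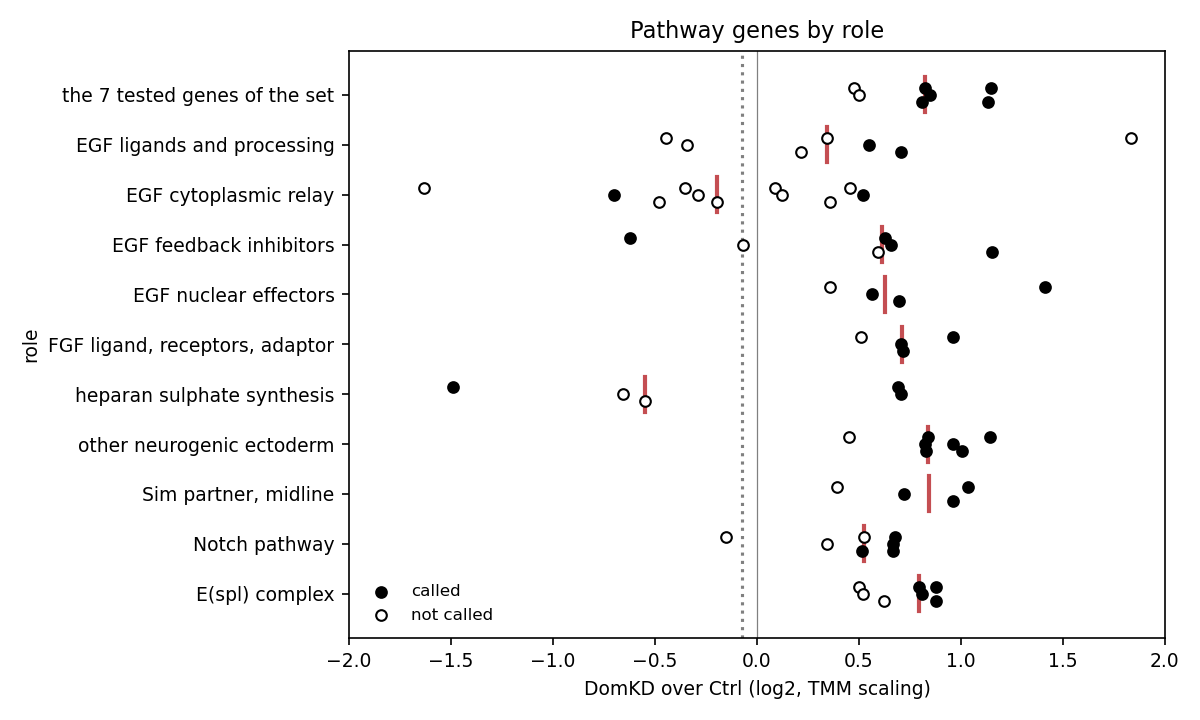
Log2 change of DomKD over Ctrl (TMM scaling) of the 7 tested genes of the set and of the other pathway genes by role (filled, called by edgeR; open, not called; red bars, median of the role; dotted line, median of all tested genes, -0.07). The medians of the cytoplasmic relay (-0.19) and of heparan sulphate synthesis (-0.55) are below 0, and those of the other roles lie between 0.34 and 0.84.

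Marker genes of other parts of the embryo moved with these genes under TMM scaling. Of 7 mesoderm markers 6 were called higher (median 0.96), of 8 dorsal ectoderm markers 5 (median 0.76) and of 5 tested cellularization markers all 5 (median 1.31). None was called lower in any of these lists. Among all tested genes 12.1% were called higher and 9.64% lower. The summed level of the cellularization markers was 2980 to 10370 CPM in Ctrl and 12020 to 25220 CPM in DomKD, that of the mesoderm markers 1597 to 2375 and 3535 to 4187 CPM, and that of the dorsal ectoderm markers 1764 to 2570 and 3992 to 5222 CPM. Sums carry no term for batch, and batch A held more DomKD than Ctrl libraries. Among the cellularization markers the groups overlapped for nullo and bnk and did not for frs, halo and slam. The reads of nullo were 2116 in Ctrl A1, 242 in Ctrl B1 and 232 in Ctrl B2. In DomKD they were 6218 in A1, 3215 in A2 and 192 in B1. The 7 genes together had 2979 to 4014 CPM in Ctrl and 6457 to 7740 CPM in DomKD. Of 7 maternal and pole cell markers 1 was called higher (bcd, named after its value was seen), and their median log2 change was 0.07. Their sum was 114 to 120 CPM in Ctrl and 123 to 162 CPM in DomKD, so that the groups nearly met but did not overlap. In DomKD B1, nos, osk and vas had 0 reads, and aub, bcd, gcl and pgc had 95, 214, 258 and 1075. Of 6 tested markers of later tissues none was called by edgeR. What part cell numbers or the exact age of the embryos had in the changes was not tested.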

How the data were processed

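The authors deposited raw counts of reads for every gene in each library, beside a gene length that equalled the annotated span for 99.31% of matched genes. Per the labels and the study's methods, adapters were trimmed with cutadapt 2.5, random tetramers were taken off with UMI-tools 1.0, reads were aligned to dm6 with Bowtie2 and counted per gene and strand with featureCounts, without removal of duplicates, so that reads are not independent molecules. All 6 columns were matched to samples by title, and 17626 of 17753 genes to Ensembl annotation of the same assembly by FlyBase identifier. In a check of coordinates, the genome read ATG at 99.83% of 30618 annotated start codons.

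Genes whose mean count reached 10 were tested with the quasi-likelihood test of edgeR 4.0.16 (robust, R 4.3.3), two-sided, on TMM-scaled counts with terms for batch and group, and p-values were adjusted by Benjamini-Hochberg with a threshold of 0.05. Standard errors are the size of the change over the square root of F. CPM used TMM-scaled totals, and log2 CPM a prior count of 2. Ratios of members were compared by exact permutation tests over the 20 arrangements of the 6 libraries. Nothing beyond the titles ties the libraries to separate embryo collections except the study's methods, which call them biological replicates. The pipeline was tested on simulated data with known changes. Few genes were changed there, with rises and falls drawn alike, and there was no batch effect. The simulation was therefore no check of the scaling or of the batch term on these data. The alternatives were RLE, upper quartile, total count and Zelda list scaling, other count filters, no batch term, a replicate block, DESeq2 1.42.0, and leaving out each library. The study scaled on its own set of Zelda targets. The list used here was written from general knowledge, and the study's set was not used here.

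The 8 genes, the pathway and marker lists and the tests were chosen with earlier results of these data known. The genes named are the 8, the 20 pathway genes given in the text whatever their values, dom, for each of the 7 tested the gene with the highest correlation over the 6 libraries among genes whose mean count reached 100, and, by their position or after their values were seen, Sytbeta, bcd and the genes that overlap a member. The cellularization markers and other maternal markers given in the text were also named after their values were seen. The replicate numbers of the titles recur in both batches and were not used as pairs in the test reported. Deviations of same-numbered libraries from their group means had correlations from -0.36 to 0.24. They were 0.2 for Ctrl A1 with DomKD A1 and 0.24 for Ctrl B1 with DomKD B1, which share a batch, and below 0 across batches. Whether libraries are paired within a batch was not tested. Each library was kept as a sample. Counts of each pair differed by more than Poisson noise, but reads kept with their duplicates can exceed that noise in any case. The comparison is therefore no check that the libraries are separate samples. The squared deviation per gene relative to Poisson noise was 33.2 for DomKD A1 with DomKD A2 and 42 for Ctrl B1 with Ctrl B2. For all other pairs it was 91.1 to 423.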

Additional observations from a re-analysis of the deposited data

How the results depend on the processing

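The number of the 7 tested genes called higher was 5 in the test reported, and 4 to 7 with RLE or upper quartile scaling, other count filters, no batch term, a replicate block or DESeq2 with batch. Over all genes 1259 of 10429 were called higher in the test reported. In those alternatives it was 610 to 1683, of 8327 to 13351 tested. With total count scaling 2 of the 7 were called higher, against 538 of all 10429 genes, the median of the 7 was 0.35, and ths was at -0.00961. With Zelda list scaling 0 were higher and 1 lower, the median was -0.21 (rho -0.23, ths -0.57, pyr -0.20, vnd -0.21, sim -0.55), and 4958 genes were called in all, 66 higher and 4892 lower. With DESeq2 on Zelda list size factors without a batch term 0 were higher, the median was -0.48 (rho -0.48, vn -0.15, ths -0.77, pyr -0.58, vnd -0.32, sim -0.75), and 5081 genes were called, 61 higher and 5020 lower. These scalings move all genes together, by their construction, and the median of the 7 minus that of all tested genes, 0.90 in the test reported, moved by less than the spread between replicates under each scaling. With a replicate block in place of batch 1035 genes were called in all, 4 of the 7 higher, pyr no longer (adjusted p = 0.139). The replicate numbers recur in both batches, so a shared number need not mark a pair. Of the other pathway genes 31 were called higher in the test reported, 11 with the replicate block and 17 without a batch term. Among all 10429 tested genes these numbers were 1259, 610 and 894. Leaving out each library in turn, 0 (without DomKD B1) to 7 (without DomKD A1) of the 7 were called higher, 9 (without DomKD B1) to 3082 (without DomKD A1) genes were called in all, with 647 without Ctrl A1, 1295 without Ctrl B1 and 1351 without Ctrl B2, the median of the 7 was 0.70 to 0.88 and its difference from all genes 0.75 to 0.97. Within batch A the median of the 7 was 0.70. Of the ratios, that of ths to pyr ran from -0.35 (without Ctrl B1) to 0.032 (without Ctrl A1) and was -0.50 in batch A alone, that of rho to Egfr ran from -0.85 (without DomKD B1) to -0.31 (without DomKD A1) and was -0.44 in batch A alone and -0.21 in batch B alone, that of vn to Egfr was 0.0632 in batch B alone, and that of sim to rho was -0.49 in batch A alone and -0.13 in batch B alone. Without DomKD B1, batch B held only Ctrl libraries, and without Ctrl A1, batch A held only DomKD libraries. With batch in the model, the difference between the groups then came from the other batch alone. What else made the calls depend on single libraries was not tested. The ratio of vnd to ind was not run because ind had no reads. Counting motifs upstream of the TSS only left TCAGT in 1 gene in place of 5 and TGGGAA in 1 in place of 2. The member with the fewest reads, sim, had 860 to 2086 per library, and what part depth had in the spread was not tested.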
